A study of Mus musculus with 6 samples.

Results

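Genes of coagulation and fibrinolysis were examined by RNA-seq in cultured mouse aortic smooth muscle cells with and without the lysine methyltransferase gene *Smyd2*. The list held 9 genes, *Tfpi*, *Tfpi2*, *F3*, *F2r*, *Thbd*, *Plat*, *Plau*, *Plaur* and *Serpine2*, matched by symbol. Of these, 8 had an entry among the 18112 genes measured and *Tfpi2* was not analysed here. *Tfpi* was picked on its higher level in the knockout libraries of this same comparison, so its values are a description and carry no test. A mean of at least 0.5 FPKM (fragments per kilobase of transcript and per 1000000 mapped fragments) was required for testing, and 12565 genes reached it, including all 8 measured members. *Tfpi* reached that mean only through the knockout libraries, and the other 7 members were tested.

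Coagulation begins when tissue factor, the product of *F3*, meets its plasma protease outside the vessel lining, and tissue factor pathway inhibitor, the product of *Tfpi*, blocks the complex they form. The thrombin that results signals to cells through the receptor encoded by *F2r*, while thrombin bound to thrombomodulin, the product of *Thbd*, activates the anticoagulant protein C. Clots are dissolved by plasmin, which is made from plasminogen by the activators encoded by *Plat* and *Plau* and restrained by serpins, and smooth muscle cells of the vessel wall are a known source of tissue factor and of plasminogen activators.

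Vascular smooth muscle cells (VSMCs) were grown from the aortas of C57BL/6 mice, stated in the methods to be 8 to 10 weeks old, after the endothelium had been stripped and the adventitia removed. Controls (Smyd2 fl/fl) were littermates homozygous for a floxed *Smyd2* allele, in which LoxP sites flank exon 2. Knockout cells (Smyd2 SMC-/-) carried the same floxed allele on both chromosomes together with Tagln-Cre, a transgene driven by the SM22α promoter, which is also active in some other cell types. Poly-A RNA of 3 samples per genotype was sequenced from both ends of each fragment on the BGISEQ-500. The methods give an earlier passage, overnight starvation and TRIzol extraction, whereas the sample labels give passage 6, medium with 10% FBS and other kits. The labels do not say that the 3 samples of a genotype came from separate animals or cultures, so p-values measure only the spread between these samples, which may be technical.

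Since FPKM accounts for transcript length, levels of different genes can be set side by side on that scale. Values of the control (Smyd2 fl/fl) and knockout (Smyd2 SMC-/-) libraries are given in the order of replicates 1, 2 and 3. The depth, estimated from the steps between low values, was about 18050000, 19550000 and 19200000 fragments in the control libraries and about 16850000, 19050000 and 18700000 in the knockout libraries. Genotypes were compared on log2(FPKM + 1) with limma, a linear model over all genes, with p adjusted over the 12565 tested genes, and a log2 fold change is the knockout mean minus the control mean on this scale. The targeted gene *Smyd2* had 7.87, 3.10 and 3.0 FPKM in the control libraries and 1.67, 0.40 and 0.80 FPKM in the knockout libraries. Every knockout library lay below every control library, in the direction that the labels give. Its log2 fold change was −1.48 (standard error 0.389, limma's adjusted p = 0.105). When the replicate number was taken as a block the adjusted p was 0.0189, in a range of 0.00126 to 0.305 over the alternative settings of the processing.

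The libraries of replicate 1 stood apart from the others in both genotypes. Spearman's rho across genes was 0.992 between Smyd2 fl/fl replicates 2 and 3 and 0.989 between Smyd2 SMC-/- replicates 2 and 3, but 0.920 to 0.934 between replicate 1 and the other two of its genotype. Results are therefore given for all 6 libraries and also for replicates 2 and 3 alone. The smooth muscle identity of the cells was read from 12 marker genes. *Acta2*, the most abundant, had 761, 682 and 683 FPKM in the control libraries and 201, 268 and 262 FPKM in the knockout libraries. *Myh11*, *Myocd*, *Des* and *Itga8* were under 1 FPKM in every library, so several markers of the mature contractile cell were at or near 0 in both genotypes. The summed level of the 12 markers was 1019, 898 and 890.2 FPKM in the control libraries and 276, 505 and 457 FPKM in the knockout libraries. Without *Acta2* it was 257, 216 and 207 FPKM against 74.7, 237 and 195 FPKM. Outside *Acta2* the sum was thus much lower in the knockout in replicate 1 alone. *Mylk* was higher in the knockout in all 3 pairs, as 25.8% of all genes were. *Acta2*, *Actg2* and *Myl9* were lower in all 3, as 29.3% were. *Lmod1* was lower in pair 1 and higher in pairs 2 and 3. Of the 8 tested markers limma called 1, *Acta2*, which was lower, where 1.21% of all genes were. Its adjusted p in limma was 0.00803, and 0.0137 with the replicate block. The log2 difference of *Myl9* within the pairs was −3.05, −0.058 and −0.003.

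The 8 members covered a wide range of levels. In Smyd2 fl/fl the order of mean levels in FPKM was *F2r* (158), *F3* (87.9), *Plat* (84.3), *Thbd* (23.9), *Plaur* (19.7), *Plau* (14.1), *Serpine2* (4.51) and *Tfpi* (0.45). The libraries of *F2r* overlapped those of *F3*, and *F3* overlapped *Plat*, as did *Thbd* with *Plaur* and *Plaur* with *Plau*, while *Plat* stood above *Thbd*, *Plau* above *Serpine2* and *Serpine2* above *Tfpi* in all 3 libraries. In Smyd2 SMC-/- the order was *F2r* (220.3), *Plat* (94.3), *F3* (53.0), *Thbd* (43.8), *Tfpi* (27.9), *Plaur* (15.6), *Plau* (11.7) and *Serpine2* (2.73). *F3* then overlapped *Thbd*, *Plaur* overlapped *Plau* and *Plau* overlapped *Serpine2*, and the other neighbours in the order were apart. *Tfpi* thus passed from the last place to the fifth.

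**Figure D1:**
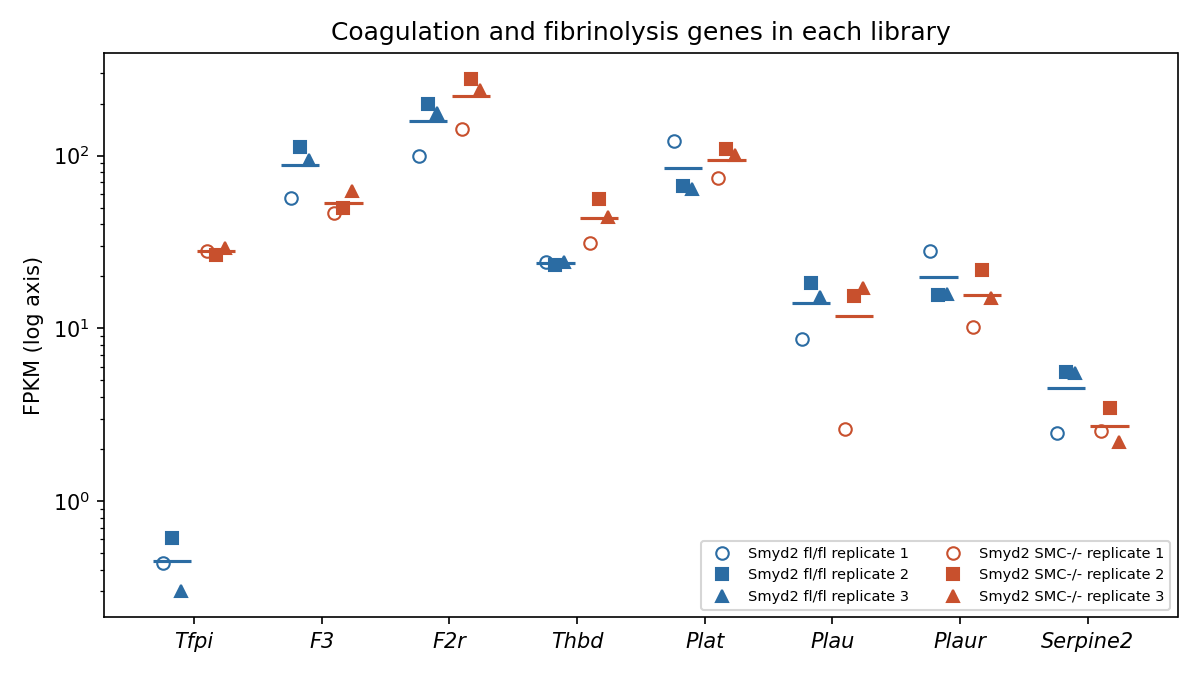
FPKM of the 8 measured members in each library on a log axis, with Smyd2 fl/fl in blue, Smyd2 SMC-/- in orange, 1 symbol per replicate number and a line at each group mean. *Tfpi* lay between 0.30 and 0.61 FPKM in the control libraries and between 26.5 and 29.1 FPKM in the knockout libraries, and *Thbd* was the other member whose groups did not overlap.

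*Tfpi* (NCBI Gene 21788, chromosome 2 of GRCm38 from 84432855 to 84476775, minus strand) encodes the Kunitz-type inhibitor of the tissue factor complex. Its level was 0.44, 0.61 and 0.30 FPKM in the control libraries, and 28.2, 26.5 and 29.1 FPKM in the knockout libraries. All 3 knockout libraries were high, all 3 control libraries were near 0, and replicate 1 of *Tfpi* did not stand apart from replicates 2 and 3 in either genotype. The ratio of the means was 62.0, and the log2 difference within same-numbered pairs was 4.34, 4.09 and 4.53. Among all 18112 genes, *Tfpi* ranked at percentiles 31.4, 33.6 and 29.3 in the controls and 83.4, 83.7 and 85.0 in the knockouts. Fragments behind these values can only be approximated, since 3 of the 12 transcripts listed for *Tfpi* had a known length. With the shortest and the longest of these, the control values stood for about 11 to 28, 17 to 43 and 8 to 21 fragments, and the knockout values for about 685 to 1692, 727 to 1796 and 784 to 1937 fragments. The control level of *Tfpi* thus rests on few fragments, and its log2 fold change moved with the pseudocount, from 4.32 with 1 FPKM added to 5.71 with 0.1 FPKM added.

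*Tfpi* is known as a product of endothelial cells, so 15 endothelial marker genes were set beside it. Of these, 12 had an entry, 1 reached the mean required for testing and 11 were under 1 FPKM in every library. Their summed level was 2.34, 3.05 and 2.93 FPKM in the control libraries and 2.86, 6.18 and 3.74 FPKM in the knockout libraries. The highest in the mean of all 6 libraries was *Kdr*, through the knockout libraries. It had 0.47, 0.58 and 0.84 FPKM in the control libraries and 0.96, 5.15 and 2.96 FPKM in the knockout libraries. *Kdr* was higher in every knockout library than in any control library, in the same direction as *Tfpi*, as 13.1% of all genes were. Limma's adjusted p for *Kdr*, the 1 marker tested, was 0.186, and 0.0770 with the replicate block. Without *Kdr* the sum was 1.87, 2.47 and 2.09 FPKM in the control libraries against 1.90, 1.03 and 0.78 FPKM in the knockout libraries. The defining markers *Cdh5*, *Tie1* and *Nos3* were at or near 0 in every library, at 0.05 FPKM or less, and *Pecam1* had 0.56, 0.88 and 0.92 FPKM in the control libraries and 0.12, 0.18 and 0 FPKM in the knockout libraries, the opposite direction to *Tfpi*. In bulk RNA, fewer cells of a type and less RNA per cell cannot be told apart.

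Genes around *Tfpi* on chromosome 2 were read as well. Within 1 Mb of the gene, 25 genes had an entry and 17 were tested, and their log2 fold changes ran from −1.50 to 0.93 with a median of −0.03. In limma 0 of the 17 had an adjusted p under 0.05 with or without the replicate block, and 3 had an unadjusted p under 0.05 without it and 7 with it, where 2556 and 4028 of all 12565 genes did. On the side of lower coordinates the next gene is *Calcrl*, 7444 bases away, which had 0.09, 0.12 and 0.16 FPKM in the control libraries and 0.25, 0.78 and 0.96 FPKM in the knockout libraries and was too low for testing. *Calcrl* was therefore higher in every knockout library than in any control library, at levels far below those of *Tfpi* in the knockout cells. On the other side the nearest gene with an entry is *Ctnnd1*, 123296 bases away, at 104, 115 and 127 FPKM in the control libraries and 94.6, 78.2 and 90.4 FPKM in the knockout libraries (log2 fold change −0.39, limma's adjusted p = 0.182).

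Promoter sequences were taken from RefSeq (GRCm38.p6) for 5 of the measured members, with 6 start sites in all, as the 220 bases from 250 to 31 bases before each start, 5′ to 3′ on the strand of the gene. Those of *Tfpi* are shown because its level differed most between the genotypes, and those of *F3*, *F2r* and *Plaur* because they hold the letters of an AP-1 site, TGANTCA, which read the same on both strands. Capitals mark AP-1 letters and the GC box, GGGCGG or its complement CCGCCC, searched on both strands, and 2 of the 3 GC boxes of *Plaur* overlap. The window of the second *Tfpi* start lies inside the annotated gene and outside its exons, that of *Serpine2*, which is not shown, lies inside its annotated gene with 1 base in an exon, and the other 4 windows lie upstream of their genes.
*Tfpi*, first listed start, chr2:84476790-84477009, minus strand: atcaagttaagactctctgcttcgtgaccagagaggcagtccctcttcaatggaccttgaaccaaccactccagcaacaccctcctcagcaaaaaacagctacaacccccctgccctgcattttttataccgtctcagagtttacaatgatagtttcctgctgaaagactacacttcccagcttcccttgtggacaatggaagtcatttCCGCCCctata
*Tfpi*, second listed start, chr2:84474205-84474424, minus strand: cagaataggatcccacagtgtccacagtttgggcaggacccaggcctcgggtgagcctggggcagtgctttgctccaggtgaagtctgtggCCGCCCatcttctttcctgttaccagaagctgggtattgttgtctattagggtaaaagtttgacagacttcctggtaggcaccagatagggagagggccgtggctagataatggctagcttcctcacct
*F3*, chr3:121723287-121723506, plus strand: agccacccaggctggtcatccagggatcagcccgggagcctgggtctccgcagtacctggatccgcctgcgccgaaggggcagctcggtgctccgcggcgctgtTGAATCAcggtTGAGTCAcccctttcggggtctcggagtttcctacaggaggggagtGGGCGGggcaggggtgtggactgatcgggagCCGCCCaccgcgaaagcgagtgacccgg
*F2r*, chr13:95618497-95618716, minus strand: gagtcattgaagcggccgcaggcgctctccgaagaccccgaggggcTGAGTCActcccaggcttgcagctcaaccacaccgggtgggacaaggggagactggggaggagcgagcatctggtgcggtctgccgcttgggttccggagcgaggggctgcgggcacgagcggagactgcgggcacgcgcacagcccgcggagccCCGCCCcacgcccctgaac
*Plaur*, chr7:24462233-24462452, plus strand: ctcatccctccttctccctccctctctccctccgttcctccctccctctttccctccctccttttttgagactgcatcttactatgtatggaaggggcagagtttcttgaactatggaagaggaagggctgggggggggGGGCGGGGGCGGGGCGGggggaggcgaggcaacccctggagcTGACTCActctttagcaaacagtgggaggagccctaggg

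The *F3* window held AP-1 letters at 146 to 140 and at 135 to 129 bases before the start, the *F2r* window at 204 to 198 and the *Plaur* window at 69 to 63. AP-1 letters were present in 6.12% of 32851 promoters of the same length, so most promoters lacked them, as did both *Tfpi* windows. A GC box was present in the windows of all 5 members, *Serpine2* included, and in 28.5% of all promoters. The CArG box, the element of smooth muscle genes bound by serum response factor, was in none of them and in 1.30% of all promoters. The GC content was 47.7% and 54.1% for *Tfpi*, 68.2% for *F3*, 70.9% for *F2r*, 60.9% for *Plaur* and 77.7% for *Serpine2*, against a median of 51.8% over all promoters. Such matches are a description of the letters in these windows.

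*F3* (NCBI Gene 14066, chromosome 3 from 121723537 to 121735048, plus strand) encodes tissue factor, the target of the inhibitor encoded by *Tfpi*. It had 57.1, 113 and 93.8 FPKM in the control libraries, and 46.8, 49.7 and 62.5 FPKM in the knockout libraries. The control library of replicate 1 lay among the knockout libraries, so the groups overlapped, although *F3* was lower in the knockout in each of the 3 same-numbered pairs. The means were 87.9 ± 28.3 FPKM (SD, n = 3) and 53.0 ± 8.35 FPKM (SD, n = 3), and the log2 fold change was −0.68 (standard error 0.266, 95% interval −1.31 to −0.04). Limma's adjusted p for *F3* was 0.223, and 0.0794 with the replicate block. It was 0.0337 with a block that set replicate 1 against replicates 2 and 3. In replicates 2 and 3 alone the log2 fold change of *F3* was −0.87 and limma's adjusted p was 0.00464, the lowest over the alternatives, which reached 0.463. The ratio of *F3* to *Tfpi* in FPKM was 129.8, 185 and 313 in the Smyd2 fl/fl libraries and 1.66, 1.88 and 2.15 in the Smyd2 SMC-/- libraries. That ratio follows from the level of *Tfpi*, on which that gene was picked, and is given as a description.

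*F2r* (NCBI Gene 14062, chromosome 13 from 95601803 to 95618487, minus strand) encodes a protease-activated receptor through which thrombin signals to smooth muscle cells. Its level was 99.8, 198 and 177 FPKM in the control libraries and 142, 279 and 240.1 FPKM in the knockout libraries. Replicate 1 was the lowest library of *F2r* in each genotype, and the groups overlapped, yet every knockout library lay above the control library of the same number. The means were 158 ± 51.8 FPKM and 220.3 ± 70.7 FPKM (SD, n = 3 each), and the log2 fold change was 0.48 (standard error 0.345, limma's adjusted p = 0.506). It was 0.18 without Smyd2 fl/fl replicate 1, 0.28 without Smyd2 SMC-/- replicate 2 and 0.77 without Smyd2 SMC-/- replicate 1. The pairs gave nearly the same log2 difference for *F2r*, 0.50, 0.49 and 0.44. When the replicate number was taken as a block the standard error was 0.0927, the 95% interval 0.24 to 0.72 and limma's adjusted p 0.0424, in a range of 0.0268 to 0.785 over the alternatives. In replicates 2 and 3 alone the log2 fold change was 0.47, with an adjusted p of 0.0316 in limma.

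*Thbd* (NCBI Gene 21824, chromosome 2 from 148404466 to 148408188, minus strand) encodes thrombomodulin, the cofactor that turns thrombin toward protein C. It had 24.2, 23.2 and 24.3 FPKM in the control libraries and 31.3, 55.8 and 44.3 FPKM in the knockout libraries. The control libraries of *Thbd* were close together, every knockout library was above all of them, and the knockout library of replicate 1 was nearest to the controls. The means were 23.9 ± 0.58 FPKM and 43.8 ± 12.2 FPKM (SD, n = 3 each), a ratio of 1.83, and the two-sided exact permutation test gave p = 0.1, the smallest that 3 against 3 allow. *Thbd* differed by 0.81 on the log2 scale (standard error 0.211, 95% interval 0.30 to 1.31), with an adjusted p of 0.103 in limma and 0.0552 with the replicate block. A block that set replicate 1 against replicates 2 and 3 gave an adjusted p of 0.0207 in limma. Taking replicates 2 and 3 alone, the difference was 1.03 and limma's adjusted p for *Thbd* was 0.00125, in a range of 0.00125 to 0.313 over the alternatives. It was also 1.03, and past an adjusted p of 0.05, when only Smyd2 SMC-/- replicate 1 was left out.

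**Figure D2:**
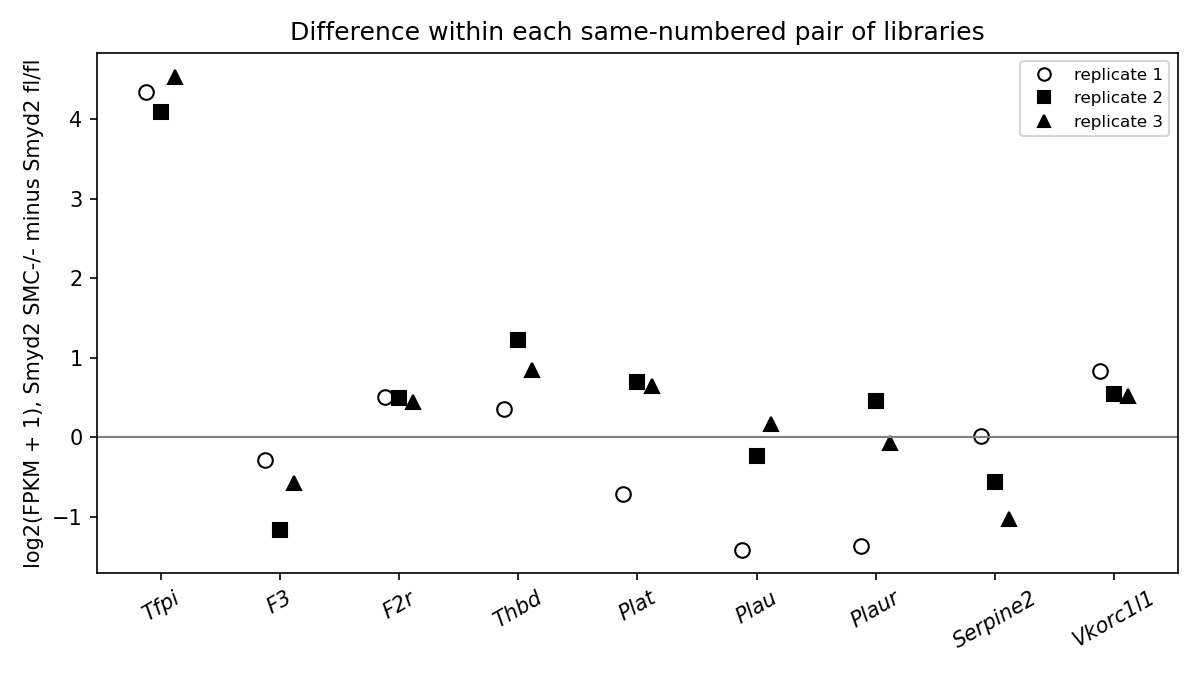
Difference in log2(FPKM + 1) between Smyd2 SMC-/- and Smyd2 fl/fl within each same-numbered pair of libraries, 1 symbol per replicate number, for the 8 measured members and *Vkorc1l1*. *F2r* and *Thbd* lay above 0 and *F3* below 0 in all 3 pairs, while *Plat*, *Plaur* and *Serpine2* had replicate 1 on the other side of 0 from replicate 2.

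*Plat* (NCBI Gene 18791, chromosome 8 from 22757727 to 22782844, plus strand) encodes tissue-type plasminogen activator. Its level was 122, 66.9 and 64.05 FPKM in the control libraries and 74.0, 109 and 100.4 FPKM in the knockout libraries. The highest library of *Plat* was the control of replicate 1, and in replicates 2 and 3 both knockout libraries lay above both controls. The pairs differed by −0.71, 0.69 and 0.64 on the log2 scale, and over all libraries the log2 fold change was 0.21 (limma's adjusted p = 0.749), in a range with each library left out from 0.04 without Smyd2 fl/fl replicate 3 to 0.50 without Smyd2 fl/fl replicate 1. In replicates 2 and 3 alone it was 0.67 for *Plat*, with an adjusted p of 0.0035 in limma, and over the alternatives the adjusted p reached 0.964.

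*Plau* (NCBI Gene 18792, chromosome 14 from 20836660 to 20843385, plus strand) encodes urokinase, the other plasminogen activator. It had 8.61, 18.3 and 15.3 FPKM in the control libraries and 2.61, 15.4 and 17.2 FPKM in the knockout libraries. Replicate 1 was the lowest library of *Plau* in each genotype and the groups overlapped. The log2 fold change was −0.50 (limma's adjusted p = 0.730) over all libraries, −0.04 in replicates 2 and 3 alone and 0.26 without Smyd2 SMC-/- replicate 1, so that its direction changed when this library was left out. *Plaur* (NCBI Gene 18793, chromosome 7 from 24462484 to 24475968, plus strand) encodes the receptor that holds urokinase at the cell surface. Its level was 28.0, 15.6 and 15.7 FPKM in the control libraries and 10.2, 21.7 and 14.9 FPKM in the knockout libraries. Replicate 1 of *Plaur* held the highest control value and the lowest knockout value. Its log2 fold change was −0.33 (limma's adjusted p = 0.646) over all libraries, −0.06 without Smyd2 fl/fl replicate 1, −0.07 without Smyd2 SMC-/- replicate 1, −0.58 without Smyd2 SMC-/- replicate 2 and 0.19 in replicates 2 and 3 alone, with an adjusted p of 0.420 to 0.929 over the alternatives. The ratio of *Plau* to *Plaur* in FPKM was 0.308, 1.18 and 0.973 in the controls and 0.255, 0.710 and 1.15 in the knockouts, so that it was lowest in replicate 1 of each genotype.

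*Serpine2* (NCBI Gene 20720, chromosome 1 from 79794197 to 79861180, minus strand) encodes protease nexin, a serpin that inhibits thrombin and plasminogen activators. It had 2.48, 5.57 and 5.48 FPKM in the control libraries and 2.53, 3.46 and 2.19 FPKM in the knockout libraries. The control library of replicate 1 was as low as the knockout libraries, and the controls of replicates 2 and 3 were higher than all of these. The log2 fold change of *Serpine2* was −0.52 (limma's adjusted p = 0.384) over all libraries, −0.82 without Smyd2 fl/fl replicate 1 and −0.79 in replicates 2 and 3 alone (adjusted p = 0.0145), with a highest adjusted p of 0.699 over the alternatives.

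Of the 7 tested members limma called 0 at an adjusted p under 0.05, and 2, *F3* and *Thbd*, had an unadjusted p under 0.05, where 2556 of all 12565 genes did. Over all genes 1.23% were higher and 1.21% lower at this adjusted p, or 0.215% and 0.207% at a fold change above 2 with an adjusted p under 0.01. The median log2 fold change was −0.33 over the 7 members and −0.02 over all genes, but over the members it was 0.19 in replicates 2 and 3 alone, 0.26 without Smyd2 SMC-/- replicate 1, −0.06 without Smyd2 fl/fl replicate 1 and −0.58 without Smyd2 SMC-/- replicate 2. With the replicate block 1 member, *F2r*, was higher and 0 were lower, against 4.72% and 5.72% of all genes, and 3 members had an unadjusted p under 0.05, where 4028 of all 12565 genes did. A block that set replicate 1 against replicates 2 and 3 put *F2r* and *Thbd* higher and *F3* lower. Under it 1152 of all 12565 genes were higher and 1398 lower. With replicates 2 and 3 alone *F2r*, *Thbd* and *Plat* were higher and *F3* and *Serpine2* were lower, where 11.9% of all genes were higher and 17.2% lower. In two-sided exact permutation tests p was 0.2 for *F3*, 0.3 for *Serpine2*, 0.4 for *F2r* and *Plaur* and 0.7 for *Plat* and *Plau*. The genotypes did not overlap in 1 member, *Thbd*, which was higher, against 13.1% of all genes higher and 15% lower. In all 3 pairs *F2r* and *Thbd* were higher and *F3* was lower, where 25.8% of all genes were higher and 29.3% lower.

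**Figure D3:**
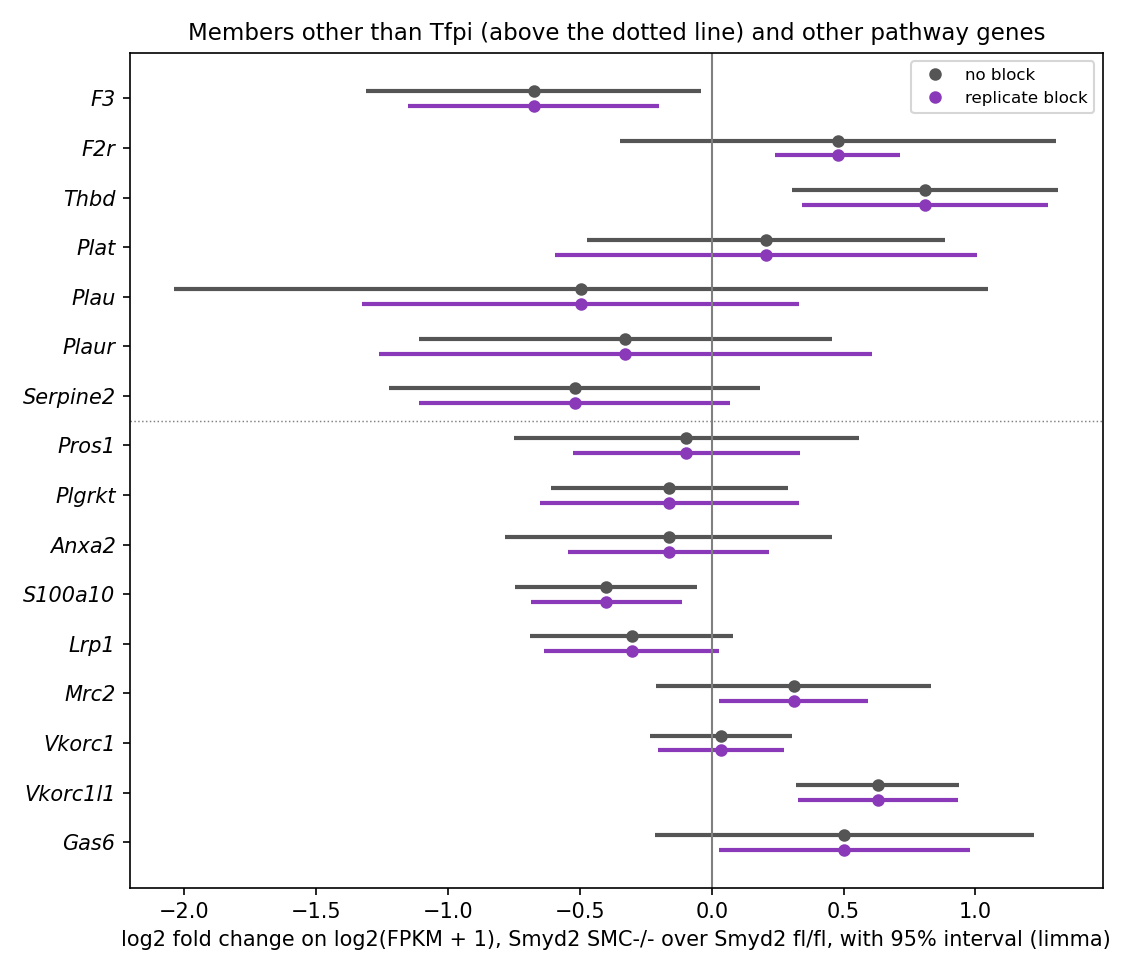
Log2 fold change of Smyd2 SMC-/- over Smyd2 fl/fl with its 95% interval from limma on log2(FPKM + 1), without a block (grey) and with the replicate block (purple), for the 7 tested members above the dotted line and 9 other genes of the pathway below it. With the block the interval of *F2r* ran from 0.24 to 0.72, and that of *F3* without the block from −1.31 to −0.04.

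When each library was rescaled to TPM, in which the values of a library sum to 1000000, the median over all genes shifted by 0.113 on the log2 scale, and the genes with an adjusted p under 0.05 then numbered 99 lower and 247 higher, in place of 152 lower and 154 higher. Relative to that median the log2 fold change of *Tfpi* was 5.05 on the TPM scale, where the added 1 weighs less than on the FPKM scale. None of the 7 tested members changed direction with the TPM scale or with quantile normalization, and 0 had an adjusted p under 0.05 in limma with either, against 1 at an unadjusted p under 0.05 with each, where 2546 and 2649 of all 12565 genes did. Quantile normalization put 168 lower genes and 175 higher ones past that adjusted p.

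Other genes of the pathway were read from 5 lists of 47 genes, all with an entry, from which 1 gene was left out and is not counted. Of the 47, 22 reached the mean required for testing, but *Fga*, *Fgb*, *Fgg* and *Entpd1* did so only through the knockout libraries, and the tests are counted over the other 18. Of 17 coagulation factors and fibrinogen chains 11 were under 1 FPKM in every library, as were 6 of 11 anticoagulant proteins, 2 of 3 other protease-activated receptors, 5 of 12 genes of the plasminogen system and 0 of 4 genes of vitamin K carboxylation. In limma 0 of the 18 had an adjusted p under 0.05, where 1.23% of all genes were higher and 1.21% lower. An unadjusted p under 0.05 was reached by 2 of the 18 and by 2556 of all 12565 genes. The median log2 fold change of the 18 was −0.05 against −0.02 over all genes. With the replicate block 1 was higher, *Vkorc1l1*, and 0 were lower, against 4.72% and 5.72% of all genes. Under that block 5 had an unadjusted p under 0.05, where 4028 of all genes did. In replicates 2 and 3 alone 4 were higher, *F2rl1*, *Gas6*, *Procr* and *Vkorc1l1*, against 11.9% of all genes. In the same fit 3 were lower, *Kng1*, *Kng2* and *Plgrkt*, against 17.2%. In all 3 pairs 5 were higher and 3 lower, against 25.8% and 29.3% of all genes. The genotypes did not overlap in 3 of the 18, *F8* and *Vkorc1l1*, which were higher, and *S100a10*, which was lower, against 13.1% and 15% of all genes.

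*Vkorc1l1*, a vitamin K reductase of the step that makes clotting factors able to bind calcium, had 8.47, 9.02 and 9.20 FPKM in the control libraries and 15.9, 13.6 and 13.6 FPKM in the knockout libraries. The genotypes did not overlap, and the log2 fold change was 0.63 (limma's adjusted p = 0.0606, or 0.0410 with the replicate block, in a range of 0.0086 to 0.232 over the alternatives). Its relative *Vkorc1* had a log2 fold change of 0.04, and *Gas6*, a vitamin K-dependent growth factor, one of 0.50. Among the abundant genes of plasminogen binding and clearance, the log2 fold change was −0.16 for *Anxa2*, −0.40 for *S100a10*, −0.16 for *Plgrkt*, −0.30 for *Lrp1* and 0.31 for *Mrc2*. With each library left out it ranged from 0.25 to 0.82 for *Gas6*, from −0.33 to −0.03 for *Plgrkt* and from 0.10 to 0.44 for *Mrc2*, so the sizes of these differences moved with single libraries. The direction changed in the same way for *Anxa2*, in a range of −0.41 to 0.082, and for *Vkorc1*, in a range of −0.020 to 0.063. The anticoagulant cofactor *Pros1* had a log2 fold change of −0.10, in a range of −0.34 to 0.15 with each library left out. None of these 8 genes had an adjusted p under 0.05 in limma with or without the replicate block.

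The genes of factor VIII and fibrinogen were singled out after their values were seen. *F8* had 0.56, 0.80 and 0.84 FPKM in the control libraries and 0.88, 1.00 and 1.06 FPKM in the knockout libraries, with no overlap of the genotypes (limma's adjusted p = 0.577). *Fga* had 0.04, 0.33 and 0.14 FPKM in the control libraries and 0.25, 0.75 and 2.73 FPKM in the knockout libraries, and *Fgb* and *Fgg* were also highest in Smyd2 SMC-/- replicate 3, at 3.93 and 3.50 FPKM. No p is given for these 3 genes, which reached the mean required for testing only through the knockout libraries. Fibrinogen is a product of hepatocytes, and 6 hepatocyte markers, chosen after these values were seen, had a summed level of 1.14, 8.36 and 6.15 FPKM in the control libraries and 8.50, 20.3 and 34.8 FPKM in the knockout libraries. Of these markers 4 were tested, *Apoa1* and *Apoa2* only through the knockout libraries, and limma called 0 without a block (adjusted p = 0.221 for *Ahsg*). With the replicate block 1 of them, *Ahsg*, was higher (limma's adjusted p = 0.00758), against 4.72% of all genes. *Ahsg* was also the highest of them in the mean of all 6 libraries and *Alb* in that of the controls, *Fabp1* was under 1 FPKM in every library, and *Alb* had 0.30, 3.32 and 2.39 FPKM in the control libraries and 2.85, 4.58 and 16.4 FPKM in the knockout libraries. A list of 5 red blood cell genes chosen in the same way, 4 with an entry and led by *Hba-a1*, summed to 0.20, 1.77 and 0.41 FPKM in the control libraries and 0.50, 0.93 and 7.77 FPKM in the knockout libraries. The part of these lists in the fibrinogen values was not tested.

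Markers of other cell types were set beside the members as well. The 10 fibroblast and adventitial markers, led by *Dcn* in the mean of all 6 libraries and by *Ly6a* in that of the controls, summed to 378, 1047 and 905 FPKM in the control libraries and 158, 740.3 and 726 FPKM in the knockout libraries, and 2 of them, *Dpt* and *Serpinf1*, were lower in limma, where 1.21% of all genes were. With the replicate block 4 were lower, against 5.72% of all genes, and 1 was higher, against 4.72%, namely *Col14a1*, at 6.49, 24.7 and 26.8 FPKM in the control libraries and 64.8, 160.1 and 197 FPKM in the knockout libraries. In all 3 pairs *Pdgfra*, *Dpt*, *Pi16*, *Ly6a*, *Cd34* and *Serpinf1* were lower, and *Col14a1*, *Dcn* and *Lum* were higher. Of all genes 29.3% were lower and 25.8% higher in all 3 pairs. The 6 mesothelial markers, led by *Upk1b* in the mean of all 6 libraries and by *Krt19* in that of the controls, summed to 65.9, 212 and 215 FPKM in the control libraries and 38.7, 308 and 177 FPKM in the knockout libraries, and 1, *Krt19*, was lower. With the replicate block *Krt19* was again lower, against 5.72% of all genes. Under it 3, *Upk1b*, *Upk3b* and *Wt1*, were higher, against 4.72%, and each of these 4 markers kept its direction in all 3 pairs. *Lrrn4* was also lower in all 3 pairs, and *Msln* was lower in pairs 2 and 3 and higher in pair 1. Both sums were lowest in replicate 1 of each genotype, as *F3*, *F2r* and *Plau* were, and the part of these cells in the levels of these 3 members was not tested. The 9 macrophage and leukocyte markers, led by *Cd14*, summed to 43.9, 30.3 and 26.9 FPKM in the control libraries and 41.6, 18.5 and 23.4 FPKM in the knockout libraries, with *Ptprc*, *Adgre1*, *Itgam* and *Tyrobp* under 1 FPKM in every library. *Cd14* and *Lyz2* were lower in the knockout in all 3 pairs. *Csf1r* was higher in all 3, at 0.58, 0.53 and 0.48 FPKM in the control libraries and 1.66, 1.42 and 1.14 FPKM in the knockout libraries. The 6 platelet and megakaryocyte markers, 5 with an entry and led by *Itga2b*, summed to 1.43, 1.87 and 1.58 FPKM in the control libraries and 2.56, 1.33 and 1.53 FPKM in the knockout libraries, with *Pf4*, *Gp1ba*, *Gp9* and *Tubb1* under 1 FPKM.

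**Figure D4:**
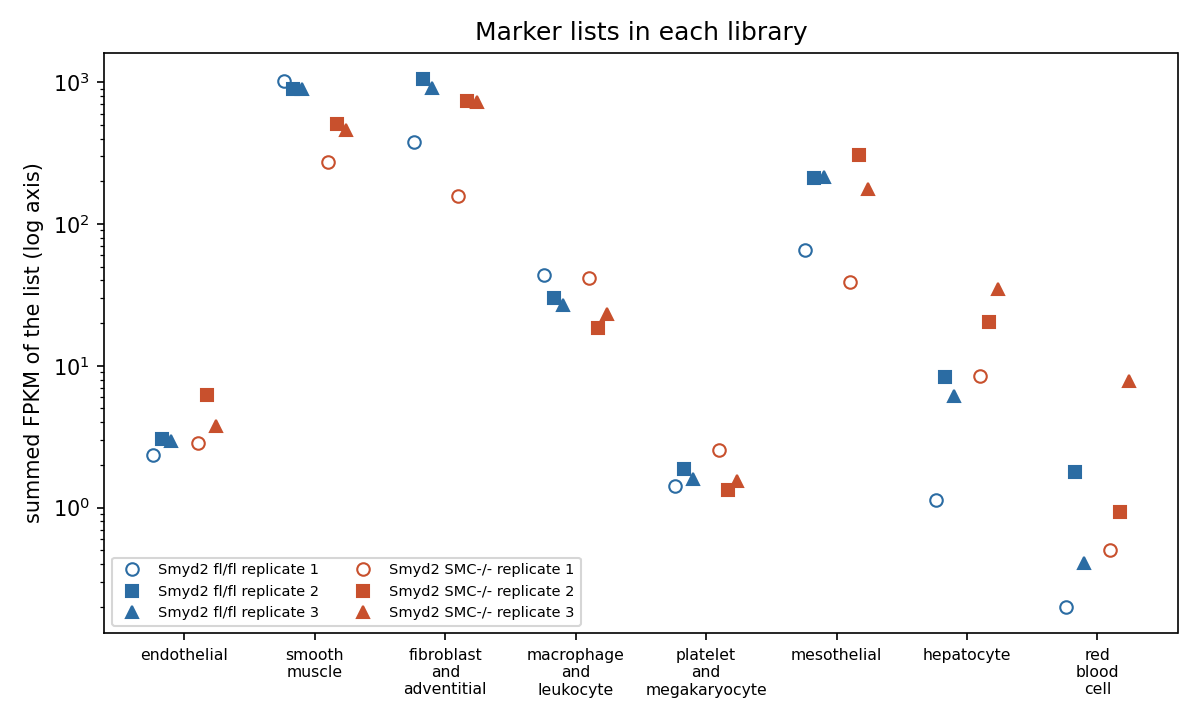
Summed FPKM of each marker list in each library on a log axis, with Smyd2 fl/fl in blue, Smyd2 SMC-/- in orange and 1 symbol per replicate number. The endothelial sum stayed between 2.34 and 6.18 FPKM in all 6 libraries, and the fibroblast and mesothelial sums were lowest in the replicate 1 libraries.

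The genes most like each member were found by Pearson's r over the 6 libraries on log2(FPKM + 1), a description over points that share genotype and replicate number. For *Tfpi* they were *Zfp651* (0.999), *Pcdhgb4* (0.998), *Cops4* (0.998), *Cnksr3* (0.998) and *Tspyl3* (0.997). *Zfp651* had 6.86, 6.98 and 6.83 FPKM in the control libraries and 13.02, 13.01 and 13.4 FPKM in the knockout libraries, so that it shared with *Tfpi* the closeness of replicate 1 to the other two and not the size of the difference. *Pcdhgb4* had 0, 0.03 and 0.03 FPKM in the control libraries and 13.7, 15.7 and 16.7 FPKM in the knockout libraries, and so was near 0 in every control library and high in every knockout library, as *Tfpi* was. *Cnksr3* had 3.43, 3.57 and 3.32 FPKM in the control libraries and 8.60, 7.86 and 8.89 FPKM in the knockout libraries. For *Thbd* the gene was *Socs2* (r = 0.993), at 6.46, 7.09 and 6.41 FPKM in the control libraries and 12.9, 42.8 and 31.4 FPKM in the knockout libraries, where replicate 1 was again nearest to the controls. For *F2r* it was *Ccdc69* (0.997), for *F3* *Tbcc* (0.994), for *Plau* *Socs5* (0.995) and for *Serpine2* *Ext1* (0.993). For *Plat* it was *Rnd1* (0.989) and for *Plaur* *Tnfrsf12a* (0.987), and both had their highest control value in replicate 1, as *Plat* and *Plaur* did.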

How the data were processed

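Reads of the 6 libraries, 3 per genotype, were filtered with SOAPnuke, mapped with HISAT and Bowtie2 and quantified with RSEM by the authors, who deposited FPKM values with 2 decimals; tool versions and the genome build are not given in the sources used here. Because FPKM are not counts, log2(FPKM + 1) of genes whose mean reached 0.5 FPKM was compared with limma 3.58.1 in R 4.3.3 (trend and robust settings, Benjamini-Hochberg adjustment over 12565 genes). Fold changes of low genes are understated by the added 1 FPKM. Calls were an adjusted p under 0.05, or a fold change above 2 with an adjusted p under 0.01. Replicate numbers come from the sample labels, and same-numbered libraries deviated together from their group means (r = 0.615, 0.460 and 0.528 across genes), so a fit with the number as a block was made too. Libraries numbered 2 and 3 correlated about as well with each other's number (0.439 and 0.461), so the values set replicate 1 apart and do not show a pairing of 2 and 3. Depth was estimated from 256 to 320 low values per library, drawn from 4343 genes with 1 listed transcript of known length, with 67.7% to 69.9% of low values within 0.15 of a whole fragment, against 30% by chance, and it is approximate.

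The members and lists were chosen with earlier results of these data known. Genes named are the members, *Smyd2*, pathway genes with an adjusted p under 0.05 with or without the block or a mean of at least 20 FPKM, the marker of each list with the highest mean over all libraries and those near 0, the genes most like each member, and the neighbours of *Tfpi*. Others were named after their values were seen. Of the pathway genes that meet this rule, 1 is left out of the lists and of the pathway counts and is not reported, and the others are. The hepatocyte and red blood cell lists, and the removal of the median of all genes on the TPM scale, were added after seeing the data. Positions are those of GENCODE M21 (GRCm38) and promoters those of RefSeq. Python 3.11.15 with pandas 2.3.3 was used for tables. The other alternatives were a pseudocount of 0.1, no filter, TPM, quantile normalization, replicates 2 and 3 alone, a block that sets replicate 1 against the other two, and leaving out each library.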

Additional observations from a re-analysis of the deposited data

How the results depend on the processing

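Of 308 values of single genes recomputed under the alternatives, 278 kept their direction and, where a p was given, their side of the threshold. In addition 20 passed the threshold, 7 changed sign and 3 of *Tfpi* moved. These 3 were 5.71 with a pseudocount of 0.1, 5.15 on the TPM scale and 5.05 on the TPM scale with the median removed. The last alternative was chosen after seeing the data. The FPKM of a library summed to 388507 to 451539, and the 1 was added after rescaling to TPM. The added 1 therefore weighed less on the TPM scale, so these 3 values are not separate from the choice of pseudocount. Only *Tfpi* was judged by size, and the values of other genes moved in size too, with *Fga*, *Fgb* and *Fgg* at 1.95, 1.54 and 2.32 with a pseudocount of 0.1 and at 0.35, 0.13 and 0.35 without Smyd2 SMC-/- replicate 3, from 0.79, 0.72 and 0.89. These 3 genes reached the mean required for testing only through the knockout libraries, and *Tfpi* was picked on its rise. Their kept direction is thus a description that follows from how they entered, although their values are among the 308. The log2 fold change of *Tfpi* ranged from 4.25 to 5.71. Those that changed sign were *Plau* without Smyd2 SMC-/- replicate 1 (0.26, in a range down to −0.91), *Plaur* in replicates 2 and 3 alone (0.19), *Pros1* on the TPM scale (0.025), without Smyd2 fl/fl replicate 1 (0.05) and without Smyd2 SMC-/- replicate 2 (0.15), in a range of −0.34 to 0.15 with each library left out, *Anxa2* without Smyd2 SMC-/- replicate 1 (0.082, in a range down to −0.41) and *Vkorc1* without Smyd2 fl/fl replicate 3 (−0.020, in a range up to 0.063 with each library left out, and 0.160 on the TPM scale). Genes past an adjusted p of 0.05 were 152 lower and 154 higher, against 99 and 247 on the TPM scale, 719 and 593 with the replicate block, 1398 and 1152 with a block for replicate 1 and 2156 and 1494 in replicates 2 and 3 alone. With each library left out they ranged from 16 to 313 and from 16 to 373, highest without Smyd2 SMC-/- replicate 1, and they were between 16 and 28 without Smyd2 fl/fl replicate 2 or 3 or Smyd2 SMC-/- replicate 2 or 3. At an adjusted p under 0.01 with a fold change above 2 they numbered 26 and 27, against 10 and 10 with no filter, 158 and 216 with the block for replicate 1, and 295 and 357 in replicates 2 and 3 alone, with 48 higher under the replicate block. With each library left out they ranged from 1 to 39 and from 3 to 68, and without Smyd2 fl/fl replicate 1 the number higher was 15. Of the 7 tested members 1 was called with the replicate block, 3 with the block for replicate 1, 5 in replicates 2 and 3 alone and 0 to 1 with each library left out, the 1 being *Thbd* without Smyd2 SMC-/- replicate 1. Of the 18 pathway genes 1 was called on the TPM scale, with quantile normalization and with either block, 7 in replicates 2 and 3 alone and 0 with each library left out, where 1 to 4 had an unadjusted p under 0.05 in limma and 1623 to 3273 of all 12565 genes did. Apart from *Smyd2*, *F2r* and *Vkorc1l1*, the replicate block changed no call of a named member or pathway gene. The cause of these differences was not tested. In libraries of about 16850000 to 19550000 fragments, a level under 1 FPKM can rest on few fragments, as that of *Tfpi* in the controls does.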
